A study of Mus musculus with 5 samples.

Results

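Cathepsins and other lysosomal genes were followed through all libraries of a study of cells from the mouse pelvis-kidney junction, where the kidney drains into the urinary tract. The members are 47 genes given as a list by name, 13 of them proteases, and all 47 were found among the 18044 genes of the deposited table. All 47 also passed the filter on low values, a mean normalized count of at least 5. The junctions came from wild-type C57BL/6 embryos at E18.5, and tissue from all embryos was pooled, dispersed with collagenase and stained with an antibody against the channel protein HCN3. Sorting by flow cytometry gave HCN3-positive cells, which the submitters call urinary tract pacemaker cells, and HCN3-negative cells of the same junctions, and the design asks how their transcripts differ. RNA was sequenced from 2 libraries labelled HCN3-positive and 3 labelled HCN3-negative. No genotype or treatment separates the groups, so the sort gate is the labelled difference between them. The tissue was pooled and the labels name no separate pools, so p-values here cover the spread between libraries alone, and that spread may be technical.

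The lysosome is an acidic compartment in which proteins, glycans and lipids taken up from outside or delivered by autophagy are broken down. Most of its enzymes are tagged with mannose 6-phosphate in the Golgi and carried there by sorting receptors, and a proton pump keeps its lumen acidic. Nearly every cell has lysosomes, but macrophages are known for being especially rich in them, and some lysosomal proteases, among them cathepsin S, are typical of antigen-presenting cells. In the kidney the proximal tubule also has an active lysosomal system, which degrades filtered protein.

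The libraries held 24588864 to 39034478 reads in genes. Values below are normalized counts: the reads of a gene over the size factor of its library. The fold column of the authors' deposited table does not compare the labelled groups: in all 18047 rows it is the mean of 3 libraries over the mean of the other 2. The pair in the denominator is HCN3-positive 1 with HCN3-negative 2, called the first set here, and the remaining 3 (HCN3-positive 2 with HCN3-negative 1 and 3) are called the second set. The table is titled as negative against positive and its sets of 3 and 2 have the sizes of the labelled groups, but no column names a set. Whether sample titles or table columns were exchanged, or the fold was formed over other groups than the labelled ones, cannot be told apart here. Every value by label therefore holds only if the titles are right. The transcript of the sorted protein, Hcn3, had normalized counts of 0 and 44.5 under the label HCN3-positive and of 103, 32.2 and 41.9 under HCN3-negative, so the labelled groups overlapped. Its 0 in HCN3-positive 1 allows a level of up to 4.23, the value of 3 reads there, for counting error only. Both libraries of the first set lay below all of the second set for Hcn3, as they did for 26.1% of all genes tested. This order rests on few reads, 29 in HCN3-negative 2 against 45 in HCN3-negative 3, and is uncertain. The members are therefore compared both by label and by set. Both use the same 5 libraries and are not independent of each other.

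By label, no lysosomal gene passed the test. Each labelled group holds libraries of both sets, so differences between the sets widen the spread within a label. The SE of the log2 fold change by label ran from 0.22 in Laptm4a to 4.04 in Ctss. Where it is wide, a large difference by label could go uncalled, and the absence of calls does not show equal levels. Limma called 0 of 47 members higher and 0 lower under the label HCN3-positive, at an adjusted p of 0.05, as it did 0% of the 16579 genes tested in each direction. At an unadjusted p under 0.05 there was 1 member, Arsa, among 157 genes. On recovered reads edgeR, DESeq2 and limma-voom also called 0 members, with 1, 2 and 0 at an unadjusted p under 0.05. The median log2 fold change of the members, labelled positive over labelled negative, was -0.04, beside -0.03 over all genes tested, with a range from -0.86 in Arsa to 1.80 in Ctss. Without overlap between the labelled groups, 0 members lay higher under HCN3-positive, against 5.34% of all genes, and 2 lay lower, against 5.44%. The 2 were Arsa and Mcoln1. Each set holds libraries of both labels, so a gene whose sets do not overlap must overlap by label. That applied to 37 members higher and 2 lower in the first set. For those members the overlap by label was fixed and says nothing about the label. Arsa, the sulfatase that degrades sulfatide, was at 779.5 and 746 under HCN3-positive against 1033, 1621 and 1576. Mcoln1, the calcium channel of the lysosomal membrane, was at 1202 and 1307 against 1618, 2133 and 2459. Their log2 fold changes by label were -0.86 (SE 0.33) and -0.70 (SE 0.29), neither past the limma threshold. The median of the members turned with single libraries, being -0.95 without HCN3-positive 1, 0.91 without HCN3-positive 2 and 0.58 without HCN3-negative 2. It stayed below 0, at -0.37 and -0.29, without HCN3-negative 1 or HCN3-negative 3.

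By set, most of the same genes differed widely. The members together took 2.95% and 3.68% of all gene reads in HCN3-positive 1 and HCN3-negative 2, the first set. They took 0.657%, 0.699% and 0.812% in HCN3-positive 2, HCN3-negative 1 and HCN3-negative 3, the second set, and values by library follow this order below. Limma called 31 of 47 members higher in the first set, beside 10.6% of the 16579 genes tested, and 1 lower, beside 9.88%. That member, Ctsk, was also the only one lower at an unadjusted p under 0.05, so the counts of 0 called lower by role below hold there too. The shares of 10.6% and 9.88% are also the background for the counts of genes limma called by set in each role or list below. The sets did not overlap, with the first higher, for 37 members, against 23.5% of all genes, and with the first lower for 2, against 26.1%. The median log2 fold change, first over second set, was 1.62 for the members and -0.07 for all genes tested, and single members ran from -2.11 to 9.42. In these bulk libraries, a change in the number of cells of a type and a change in RNA per cell cannot be told apart.

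**Figure D1:**
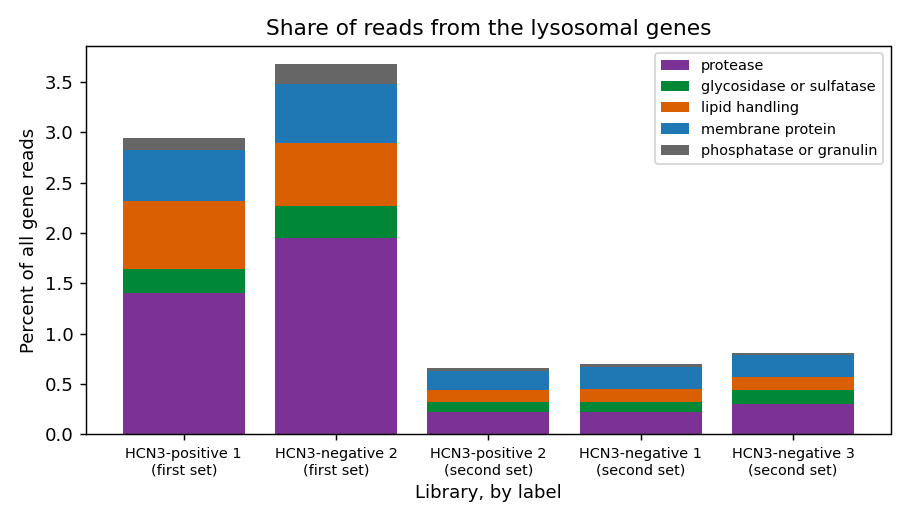
Percent of all gene reads (vertical axis) that came from the 47 lysosomal genes in each of the 5 libraries (horizontal axis), stacked by role. The bars reach 2.95% and 3.68% in the first set and lie between 0.657% and 0.812% in the second set, which cuts across the labels.

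The proteases held the widest range. Of 13 proteases, 10 were called higher and 1 lower in the first set, with a median log2 fold change of 2.43. Cathepsin S, Ctss (chromosome 3, 95526786 to 95556403, plus strand, mm10), which trims the invariant chain of MHC class II, had normalized counts of 54922 and 45199.9 in the first set and 79.4, 55.2 and 84.6 in the second. Its mean was 685-fold higher in the first set, with a log2 fold change of 9.42 (SE 0.29, adjusted p = 6.27e-05). Ctsc (chromosome 7, 88278085 to 88310888, plus strand), the dipeptidyl peptidase that activates granule serine proteases, was at 61913 and 84460.0 against 1221, 1208 and 1005, a log2 fold change of 5.99 (SE 0.21, adjusted p = 6.27e-05). For both genes the gap between the sets was far wider than the spread within either. Legumain, Lgmn, which cuts after asparagine and matures several cathepsins, was at 24545 and 31581 against 1748, 1330.2 and 1877, with 4.09 (SE 0.22, adjusted p = 0.000279) on the log2 scale.

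**Figure D2:**
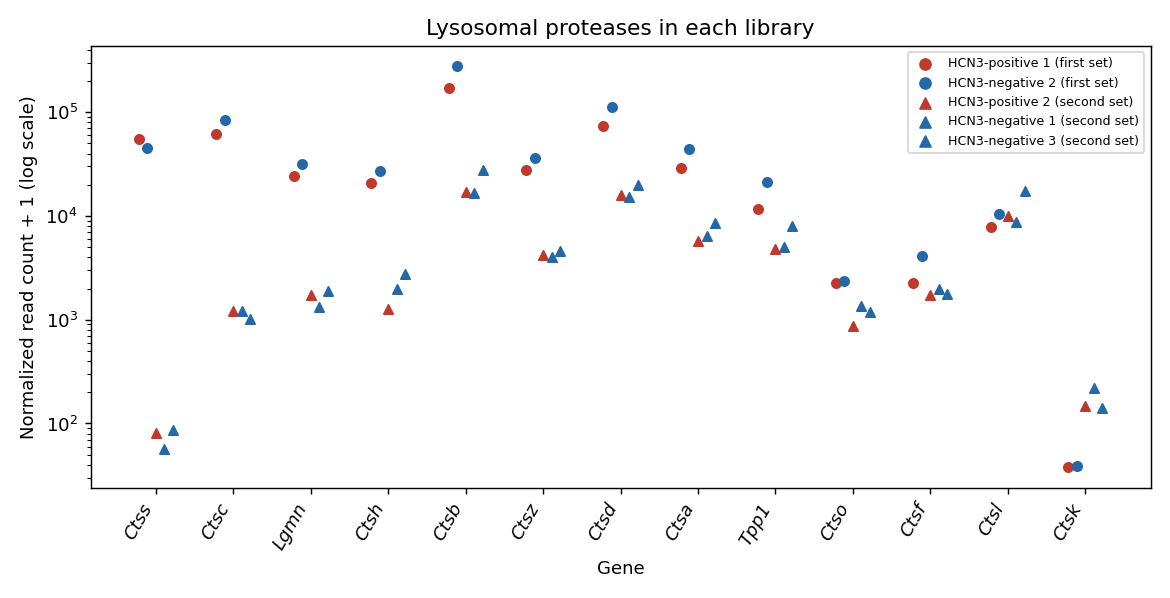
Level of the 13 lysosomal proteases (horizontal axis) in single libraries, as normalized count plus 1 on a logarithmic vertical axis, red where labelled HCN3-positive and blue where labelled HCN3-negative. Circles are the first set and triangles the second, and from Ctss, at 54922 and 45199.9 against 79.4, 55.2 and 84.6, to Ctsk, at 36.6 and 37.7 against 146, 217 and 139.5, the order of the sets turns round.

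A further 7 proteases were called higher in the first set, by smaller folds. Ctsb (chromosome 14, 63122462 to 63145923, plus strand), an endopeptidase and carboxypeptidase, was at 170840.0 and 279093 against 16922, 16761 and 27671, a log2 fold change of 3.46 (SE 0.31, adjusted p = 0.000964). The aspartic protease Ctsd (chromosome 7, 142375911 to 142388038, minus strand) was at 73363 and 112126 against 16075, 15150.0 and 19708, with 2.43 (SE 0.24, adjusted p = 0.00123). In both genes the library labelled HCN3-negative 2 was the highest of the 5, and the sets did not overlap. The aminopeptidase Ctsh was at 21027 and 27068 against 1260.3, 1979.7 and 2766, with 3.65 (SE 0.33, adjusted p = 0.000972). Ctsz, a carboxypeptidase, was at 27865 and 36135 against 4175, 4065 and 4619, with 2.89 (SE 0.18, adjusted p = 0.000385). Ctsa, the carboxypeptidase that also protects Neu1 and Glb1 in a complex, was at 28822 and 44567 against 5699, 6431 and 8490.0, with 2.40 (SE 0.26, adjusted p = 0.00168). These 3 genes were each separated by set, which by itself makes the labels overlap. Tpp1, a tripeptidyl peptidase, was at 11804 and 21119 against 4811, 5039 and 8043, with 1.44 (SE 0.33, adjusted p = 0.0229), and Ctso, a cysteine cathepsin, at 2243 and 2387 against 865, 1343 and 1191, with 1.05 (SE 0.26, adjusted p = 0.0308). Both calls were lost when single libraries were left out. For Tpp1 this held without HCN3-positive 1, HCN3-positive 2, HCN3-negative 1 or HCN3-negative 2, up to an adjusted p of 0.127. For Ctso it held without any one of the 5 libraries, up to 0.127.

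Not all cathepsins followed. Ctsf, a cysteine protease, was at 2267 and 4099 against 1748, 1957 and 1751, with a log2 fold change of 0.75 (SE 0.28, adjusted p = 0.114), and passed without HCN3-positive 1 (adjusted p = 0.048). Ctsl, an endopeptidase of many cell types, was at 7874 and 10523 against 9935, 8731 and 17504, with -0.34 (SE 0.32, adjusted p = 0.521), and its highest value was in the second set. Ctsk, the collagen-degrading cathepsin best known from osteoclasts, was the only member called lower in the first set, at 36.6 and 37.7 against 146, 217 and 139.5, with -2.11 (SE 0.60, adjusted p = 0.0488). That call was lost in 11 of 16 alternatives, edgeR and each left-out library among them (adjusted p up to 0.172), while the log2 fold change lay between -2.28 and -1.89. Ctsk lies at chromosome 3, 95499256 to 95509362, plus strand, and ends 17423 bases before Ctss begins on the same strand. The genes at the opposite ends of the range are therefore neighbours.

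The bases just before the start sites of 5 members are shown to set these neighbours beside members with known lysosomal promoter motifs. Many lysosomal genes carry the CLEAR motif, bound by the transcription factor TFEB and its relatives, whose core is TCACGTGA around the E-box CACGTG. Sequences are from RefSeq (GRCm38.p6, the same assembly as mm10), cover the 160 bases before the start site and read 5′ to 3′ on the gene's strand. Capitals mark CACGTG, TCACGTGA or GAGGAAGT, a motif of the myeloid factor PU.1, on either strand.
Ctss (chr3:95526626-95526785, plus strand): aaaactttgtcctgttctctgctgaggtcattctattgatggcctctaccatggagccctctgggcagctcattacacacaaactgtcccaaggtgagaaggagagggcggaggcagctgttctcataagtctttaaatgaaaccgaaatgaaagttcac
Ctsk (chr3:95499050-95499209, plus strand): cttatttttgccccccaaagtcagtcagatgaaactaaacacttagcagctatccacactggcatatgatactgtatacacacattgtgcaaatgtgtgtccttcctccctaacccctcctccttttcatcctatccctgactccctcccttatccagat
Ctsc (chr7:88277925-88278084, plus strand): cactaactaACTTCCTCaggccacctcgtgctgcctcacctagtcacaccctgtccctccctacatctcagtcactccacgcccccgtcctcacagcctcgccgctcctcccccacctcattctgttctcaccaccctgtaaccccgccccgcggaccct
Ctsd (chr7:142387828-142387987, minus strand): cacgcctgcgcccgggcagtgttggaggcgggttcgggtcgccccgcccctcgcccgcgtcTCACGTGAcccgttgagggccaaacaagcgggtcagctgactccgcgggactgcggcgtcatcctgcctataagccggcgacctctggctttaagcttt
Mcoln1 (chr8:3500359-3500518, plus strand): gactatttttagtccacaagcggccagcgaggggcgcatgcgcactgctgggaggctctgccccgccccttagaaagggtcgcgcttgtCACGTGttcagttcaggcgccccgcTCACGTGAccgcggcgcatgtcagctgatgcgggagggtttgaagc
Ctss and Ctsk have none of these motifs in the stretch shown, Ctsc has GAGGAAGT on the opposite strand, and Ctsd and Mcoln1 have TCACGTGA. A promoter window of 300 bases, from 250 before to 50 after a start site, was on file for 43 of 47 members, in 48 windows. CACGTG, a palindrome, occurred in 12 of these windows, or 25.0%, and in 7.15% of all 32851 windows and 9.2% of the windows of genes tested here, which are the closer background. TCACGTGA, which contains it, occurred in 4, those of Ctsa, Ctsd, Gla and Mcoln1, or 8.33%, against 0.974% of all windows and 1.59% of those of genes tested. GAGGAAGT, on both strands, occurred in 4, those of Ctss (across its start site), Ctsc, Gla and Gusb, or 8.33%, against 3.2% of all and 3.05% of those of genes tested. The 4 members with TCACGTGA spanned log2 fold changes by set from -0.11 in Mcoln1 to 2.43 in Ctsd. Over the 160 bases before the start site, the median share of G and C was 56.9% for the members and 53.75% for all windows. Bases after the start site matched a GENCODE transcript of the gene in 39 of the 48 windows. A motif match is a description of letters and not of binding.

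The glycosidases and sulfatases, which take glycans and glycosaminoglycans apart one sugar or sulfate at a time, did not all pass. Of 15, 6 were called higher in the first set and 0 lower, with a median log2 fold change of 0.98. The log2 fold change was above 0 in 14. For 11 the sets did not overlap, with the first higher, against 23.5% of all genes. Man2b1 (chromosome 8, 85083270 to 85098282, plus strand), the alpha-mannosidase of N-glycans, was at 20614 and 24606 against 1969, 2981 and 3333, with a log2 fold change of 3.06 (SE 0.26, adjusted p = 0.000796). Hexa, the alpha subunit of the hexosaminidase that acts on the ganglioside GM2, was at 15699 and 26881 against 2558, 3340.2 and 3172, with 2.77 (SE 0.27, adjusted p = 0.00114). The beta-glucuronidase Gusb was at 14623 and 18428 against 3015, 3096 and 3768, with 2.32 (SE 0.20, adjusted p = 0.000795). In these 3 enzymes every library of the first set was above every library of the second, so the labels had to overlap. Also called were the alpha-galactosidase Gla, the iduronidase Idua and the fucosidase Fuca1, with 1.74 (adjusted p = 0.0373), 1.58 (adjusted p = 0.00757) and 0.98 (adjusted p = 0.025). Leaving out single libraries ended these calls: any one of the 5 for Gla, HCN3-positive 1 or HCN3-negative 2 for Idua, and any but HCN3-negative 3 for Fuca1, with adjusted p up to 0.154, 0.0525 and 0.118.

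The other 9 of this class did not pass. The acid glucosidase Gaa, which breaks down glycogen, was at 5271 and 8033 against 5809.8, 5713 and 9489, with a log2 fold change of -0.06 (SE 0.30, adjusted p = 0.905), and Arsa at 779.5 and 1621 against 746, 1033 and 1576, with 0.08 (SE 0.43, adjusted p = 0.925). For both the sets overlapped. The galactosylceramidase Galc, the sialidase Neu1, the iduronate sulfatase Ids, the beta-mannosidase Manba and the sulfatase Arsb had log2 fold changes of 1.20, 1.02, 0.87, 0.84 and 0.27, with sets that did not overlap. Naglu, which acts on heparan sulfate, and the beta-galactosidase Glb1 had 0.66 and 0.50, with sets that overlapped. The adjusted p of these 7 ran from 0.0663 to 0.462. Galc and Neu1 passed without HCN3-negative 3 (0.012 and 0.023), the library of the second set in which both were highest. Both also passed in limma with a replicate block (0.0153 and 0.0246). Galc passed with DESeq2 and limma-voom on all libraries (0.0478 and 0.0488), and Manba with DESeq2 (0.0422). With the label as covariate in limma, Neu1 and Manba passed (0.0461 and 0.0479).

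Of 8 genes for the breakdown and export of lipids, 7 were called higher in the first set and 0 lower, with a median log2 fold change of 2.07. Gm2a (chromosome 11, 55098115 to 55113029, plus strand), the activator that lifts GM2 out of the membrane for hexosaminidase, was at 22768 and 21499.6 against 2518, 2022 and 1832, with a log2 fold change of 3.39 (SE 0.20, adjusted p = 0.000311). Prosaposin, Psap, the precursor of the saposins that present sphingolipids to their hydrolases, was at 150006 and 135245 against 16452, 17291 and 20168, with 2.99 (SE 0.18, adjusted p = 0.000343). The acid ceramidase Asah1 was at 24616 and 28069.7 against 4689.7, 5432 and 6250.1, with 2.28 (SE 0.19, adjusted p = 0.000779). For these 3 the sets lay far apart, and the libraries within a set were close. The cholesterol exporters Npc2 and Npc1 had log2 fold changes of 2.10 (adjusted p = 0.000713) and 1.55 (adjusted p = 0.0301), and the acid lipase Lipa 2.04 (adjusted p = 0.00328). The call of Npc1 was lost without HCN3-positive 1, HCN3-positive 2, HCN3-negative 1 or HCN3-negative 2 (adjusted p up to 0.187). Ppt1, which removes palmitate from proteins, was at 11763 and 10339 against 3600.0, 3679.7 and 4178, with 1.53 (SE 0.17, adjusted p = 0.00187). The acid sphingomyelinase Smpd1 was at 2427 and 1995 against 1942, 1516 and 2756, with 0.13 (SE 0.29, adjusted p = 0.799), and its sets overlapped.

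Proteins of the lysosomal membrane held the widest folds after Ctss as well as members with almost even levels. Of 8, 5 were called higher in the first set and 0 lower. Cd68 (chromosome 11, 69664213 to 69666153, minus strand), a heavily glycosylated protein used as a marker of macrophages, was at 14832 and 20411 against 60.8, 69.5 and 143, with a log2 fold change of 7.67 (SE 0.43, adjusted p = 0.000281). Laptm5 (chromosome 4, 130913125 to 130936141, plus strand), a membrane protein of blood cell lysosomes, was at 55165 and 55764 against 358, 170.2 and 1089, with 7.09 (SE 0.68, adjusted p = 0.00116). Among the second set, HCN3-negative 3 had the most of both. Lamp1, a main structural glycoprotein of the membrane, was at 53297 and 69292 against 15662, 16811 and 21215, with 1.78 (SE 0.21, adjusted p = 0.00235). Its relative Lamp2 and the glucocerebrosidase receptor Scarb2 had 1.18 (adjusted p = 0.0236) and 1.62 (adjusted p = 0.00532), calls lost without HCN3-positive 1 (adjusted p = 0.115 and 0.0505) and, for Lamp2, also without HCN3-negative 1 or HCN3-negative 2 (adjusted p = 0.0741 and 0.131). The tetraspanin Cd63 was at 11277 and 17932 against 15213, 15191 and 12058, with 0.02 (SE 0.24, adjusted p = 0.975), and its sign turned under TMM and upper-quartile scaling. Mcoln1 was at 1202 and 2133 against 1307, 1618 and 2459, with -0.11 (SE 0.36, adjusted p = 0.864). Laptm4a, a widely expressed relative of Laptm5, had -0.23 (adjusted p = 0.408), and although it did not pass, both libraries of the first set lay below all 3 of the second.

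The acid phosphatases and progranulin were all 3 of 3 higher in the first set. Acp5 (chromosome 9, 22126727 to 22135711, minus strand), the tartrate-resistant phosphatase of osteoclasts and some macrophages, was at 2143 and 1710.2 against 76.4, 68.6 and 113, with a log2 fold change of 4.49 (SE 0.43, adjusted p = 0.00114). Progranulin, Grn, a secreted growth factor that is also processed in lysosomes, was at 33899.6 and 60936 against 6167, 5901 and 5468, with 2.96 (SE 0.26, adjusted p = 0.000902). Acp2, the ubiquitous lysosomal acid phosphatase, was at 6174 and 8136 against 1667, 2521 and 2580.4, with 1.68 (SE 0.26, adjusted p = 0.00586). Acp5 and Ctsk, both known from osteoclasts, stood on opposite sides of 0.

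**Figure D3:**
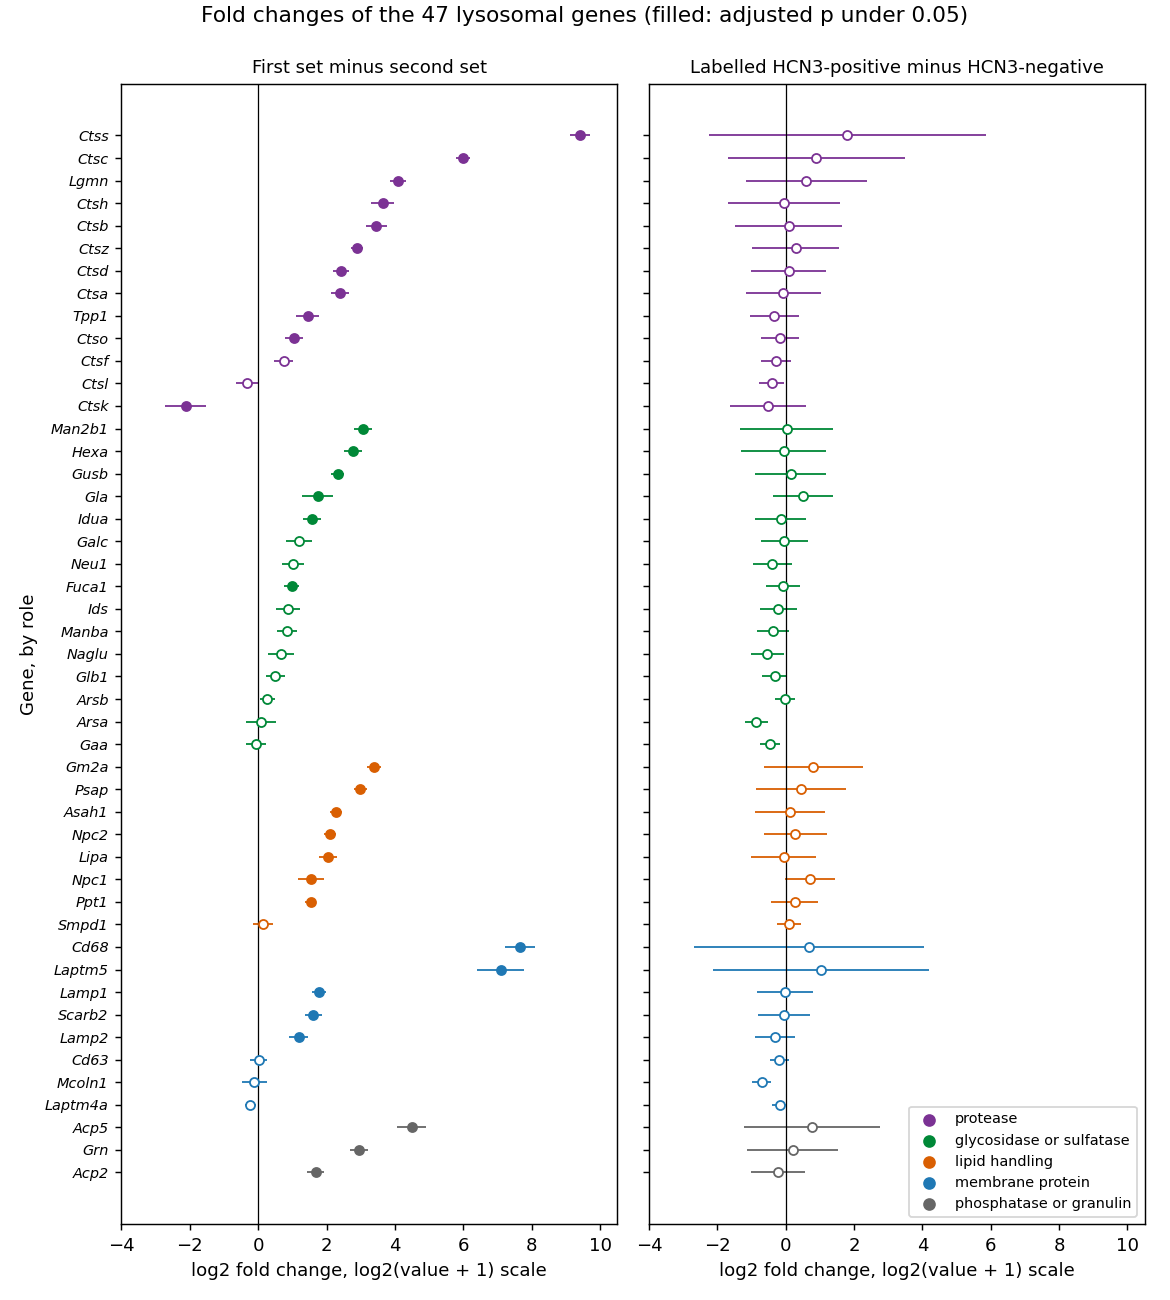
Log2 fold change of each of the 47 members (rows, by role) with its standard error, first set minus second set on the left and labelled HCN3-positive minus HCN3-negative on the right. Filled points passed an adjusted p of 0.05 in limma: 32 of 47 on the left, from -2.11 to 9.42, and 0 on the right.

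The authors' deposited table made 30 of 47 members higher in the first set at their adjusted p of 0.05, where it did so for 8.1% of all genes, and 0 higher in the second set, where it did so for 6.09%. Since that table compares the same libraries as the fit by set, it is no independent evidence. It differed from the fit for 4 members: Ctso, Fuca1 and Ctsk did not pass in the authors' deposited table, at adjusted p of 0.0614, 0.0538 and 0.113, and Galc did, at 0.0458. For Ctss the authors' deposited table gave a log2 fold change of 9.42, turned here to first over second set, and an adjusted p of 1.12e-82.

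Levels can be set side by side between genes only per length, here as normalized counts per kilobase of exon in GENCODE M21. In the first set Psap led the members at 51977 ± 3804 (SD, n = 2), followed by Ctsd at 39449 ± 11659, Ctsb at 37178 ± 12650.2 and Ctss at 36864 ± 5062. The last 3 did not differ beyond their spread. In the second set Ctss was at place 45 of 47, at 53.8 ± 11.5 (SD, n = 3), while Psap, at 6549 ± 710.2, Ctsd, at 7222 ± 1025, and Lamp1, at 6690.2 ± 1096, were among the highest. Place 1 in the second set went to Laptm4a, which did not pass the test by set, at 8856 ± 956 against 7539.9 ± 54.3 in the first set. Ctsk was lowest of the members in the first set, at 24.6 ± 0.507, and at 111 ± 28.6 in the second. In the first set 44 of 47 members lay above the median of the 15732 tested genes with a length, 157 per kilobase, and 29 above their ninth decile, 1229. In the second set 38 lay above the median, 150.5, and 17 above the ninth decile, 1014.

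Within each set the labels can be compared without crossing the division, though with too few libraries for a test. In the first set 37 of 47 members were higher in the library labelled HCN3-negative 2 than in HCN3-positive 1, with a median log2 difference, labelled positive minus labelled negative, of -0.36 and a range from -1.06 to 0.67. Of all genes tested, 50.9% were higher in HCN3-negative 2, with a median of -0.01. In the second set 38 of 47 were lower in HCN3-positive 2 than in the mean log2 value of HCN3-negative 1 and 3, with a median of -0.27 and a range from -0.89 to 0.39. Of all genes, 52.4% were lower there, with a median of -0.03. Ctss was a member of the minority in both, with 0.28 and 0.21. With the division as a second term in limma, a fit chosen after the data were seen, 0 members were called higher and 0 lower by label. In that fit 7 of 47 were at an unadjusted p under 0.05, beside 544 of 16579 genes. Their median in that fit was -0.32, beside -0.04 over all genes tested.

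Genes of the pathway lists moved by set too. For the vacuolar proton pump, 15 of 23 subunits and partners were called higher and 0 lower, with a median log2 fold change of 1.25. The sets did not overlap, with the first higher, for 21 of 23, against 23.5% of all genes. With the first lower this held for 1, against 26.1%. The subunit Atp6v1b2 was at 15169 and 16625 against 4549, 4491 and 5369, with 1.73 (SE 0.17, adjusted p = 0.00125), and Atp6v0b and Atp6ap2 had 1.68 and 1.46. Of 29 further lysosomal genes tested, 16 were called higher and 0 lower, with a median of 1.24. Among them the metal transporter of phagosomes, Slc11a1, was at 16240.0 and 18253 against 76.4, 115 and 38.1, with 7.93 (SE 0.48, adjusted p = 0.000343). The phospholipase Pla2g15 had 4.17.

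Among regulators and sorting genes, 7 of 15 were called higher in the first set and 1 was called lower, with a median of 0.93. The 2 receptors for mannose 6-phosphate parted: Igf2r, which also clears the growth factor IGF2, was at 1575 and 1578 against 4527, 6470.2 and 6186, with a log2 fold change of -1.84 (SE 0.22, adjusted p = 0.00217), whereas M6pr was at 14410.4 and 15969 against 6296, 6682 and 6828, with 1.20 (SE 0.16, adjusted p = 0.00326). Nagpa, the enzyme that uncovers the mannose 6-phosphate tag, had 2.36 (adjusted p = 0.00303). All 4 genes of the transcription factor family of TFEB were called higher in the first set and, outside the rule for named genes, are given after their values were seen: Tfeb with 1.88, Tfe3 with 1.45, Mitf with 2.06 and Tfec with 3.77 (adjusted p from 0.00402 to 0.0138). Of 8 cathepsin inhibitors tested, 5 were called higher and 0 lower. Cystatin C, Cst3, was at 31168 and 31471 against 8036, 5923 and 6139, with 2.24 (SE 0.19, adjusted p = 0.000829). The stefins Stfa1 and Stfa3 had 5.27 and 4.98, but they belong to a cluster of near-identical copies, so their reads are uncertain.

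Markers of several cell types moved with the same division. Of 15 macrophage markers, 15 were higher in the first set, with a median log2 fold change of 8.53, and their summed normalized count was 561088 to 658652 there and 1278 to 2463 in the second. Csf1r, the receptor macrophages need to survive, was at 92159.9 and 139878 against 422, 423 and 546, Cx3cr1 at 23655 and 38024 against 14.8, 14.3 and 20.5 and Lyz2 at 166817 and 99497 against 353, 312 and 610.2. Fcgr1 was the only marker of that list with 0 reads in any library, in those labelled HCN3-negative 1 and 3. Of 8 smooth muscle markers 7 were called lower in the first set, with sums of 4444 to 6535 against 24482 to 131875. All 8 lay lower there without overlap, against 26.1% of all genes. Of 7 fibroblast and stroma markers 7 were called lower, with sums of 10327 to 11292 against 93367 to 211149. All 6 endothelial and all 5 podocyte markers were called lower too, with sums of 5224 to 5254 against 19580.0 to 71139 and 2497 to 7718 against 32893 to 265610.0. Of 8 proximal tubule markers 0 were called higher and 0 lower, at sums of 4216 to 32224 against 6098 to 17013, with 0 at an unadjusted p under 0.05. Of 8 collecting duct markers 2 were called higher, though all 8 had log2 fold changes above 0, at sums of 22312 to 69574 against 8670.5 to 20761. For urothelium (6 markers, 800.2 to 1807 against 247 to 6729) and erythroid cells (6 markers, 94.4 to 1158 against 781 to 55070.3) limma called 0, with 0 and 1 at an unadjusted p under 0.05. By label limma called 0 genes of any pathway or cell type list, with 5 of the proximal tubule, 2 of the collecting duct and 0 of each other list at an unadjusted p under 0.05. All 8 proximal tubule markers were lower under HCN3-positive (median log2 fold change -2.05), 6 without overlap, against 5.44% of all genes. All 8 collecting duct markers were higher under that label (median 1.40), 3 without overlap, against 5.34%. The part of these cell types in the differences between the lysosomal genes was not tested.

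**Figure D4:**
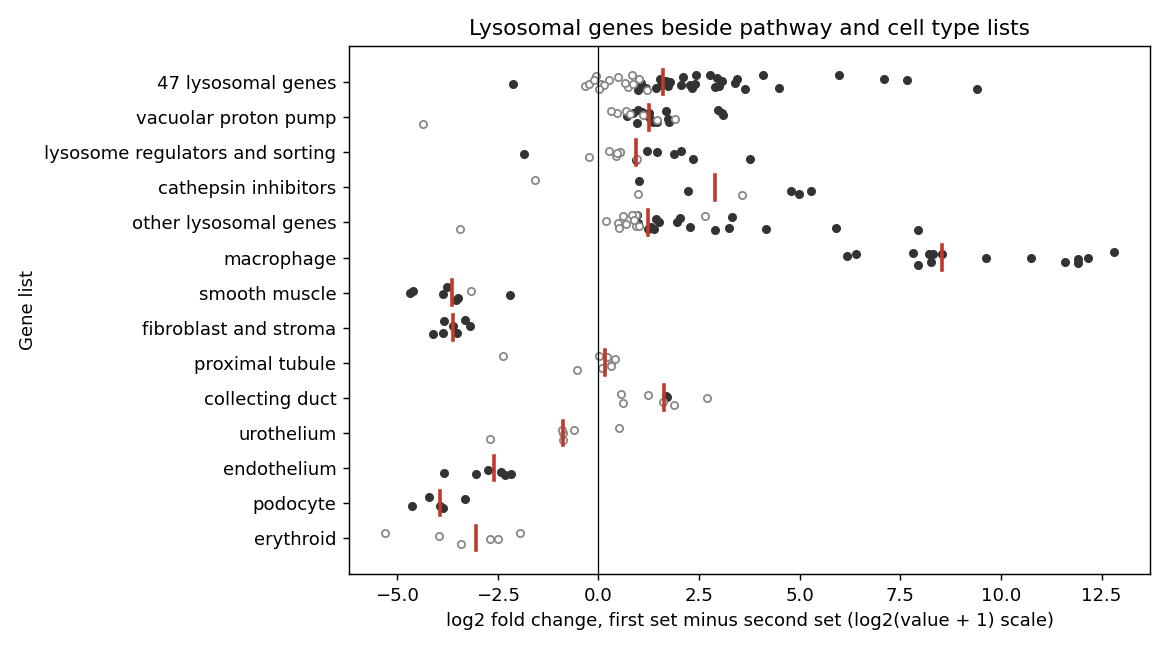
Log2 fold change, first set minus second set (horizontal axis), of each gene of the 47 lysosomal members and of 13 pathway and cell type lists (vertical axis). Filled points passed an adjusted p of 0.05 in limma and red lines are medians. The members had 1.62, and the lists ran from 8.53 for macrophage to -3.94 for podocyte.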

How the data were processed

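Per the submitters' processing notes, the tools were HTSeq 0.6.1p2, TopHat2 2.0.11, DESeq 1.18.0, Trim Galore 0.40, bcl2fastq 2.17, cutadapt 1.8 and FastQC 0.11.2, with mm10. The counting annotation was not given in the sources used here, nor was strand, so reads of overlapping genes cannot be told apart. The signal columns the authors deposited hold counts divided by a size factor. Per the file headers there are also a mean over all libraries, a fold ratio with its log2, and the authors' p-values. The 3 summary rows of the counter, 23.2% to 32.8% of all counts, were left out.

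Libraries were grouped by title and, separately, by the division that the deposited fold matches within 0.01. Values were tested with limma 3.58.1 (trend, R 4.3.3) as log2(normalized count + 1) where the mean reached 5, with Benjamini-Hochberg adjustment over all genes tested. Fold changes on that scale understate low genes. Whole reads, recovered from each column's smallest value (100% of values whole within 0.01), went into edgeR 4.0.16, DESeq2 1.42.0 and limma-voom as alternatives, which by set called 2824, 4526 and 2601 genes. Other pseudocounts, filters and scalings, left-out libraries and a replicate block were also run. The code was tested on simulated data. Every protease, and per other role the 3 largest and 2 smallest fold changes by set, are given by library, and of other lists up to 3 genes by p, except 1 gene that is not reported here. Members, lists and tests were chosen with earlier results of these data known. Positions and lengths are from GENCODE M21.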

Additional observations from a re-analysis of the deposited data

How the results depend on the processing

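By set, members called higher numbered 31 and were 24 to 33 over all alternatives, and 23 of 32 called members passed in every one. The median of the members lay between 1.45 and 1.74. The 1 member called lower, Ctsk, became 0 with a pseudocount of 0.5, no filter, edgeR, limma-voom, the label as covariate (chosen after seeing the data), the replicate block or any library left out (0 to 0). With fewer libraries, 1396 to 2910 genes were called by set in place of 3396, and 24 to 31 members higher. The lowest counts of genes came without HCN3-positive 1 (1396), HCN3-negative 1 (1794) and HCN3-positive 2 (1906), and leaving out HCN3-positive 1 or HCN3-negative 2 leaves the first set 1 library, assumed to vary like the others. By label, DESeq2 called 10 genes in place of 0, with 0 members, and the median of the members lay between -0.95 and 0.91 over left-out libraries. The cause of these changes was not tested. Upper-quartile scaling moved the median of all genes by set from -0.07 to -0.24, and the signs of Cd63, Arsa and Smpd1, none of them called, turned under it.

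Replicate numbers are shared by 2 pairs of labels, but the labels do not say that a number pairs them. Deviations of same-numbered libraries from their group means had Pearson's r of -0.534 and -0.686 across 16579 genes, which are not independent. With 2 HCN3-positive libraries these deviations mirror each other, and both pairs cross the deposited division, so the check says nothing about pairing. With the replicate block limma called 0 genes by label, with 0 members higher, 0 lower and a median of -0.29. By set the block gave 2827 genes, 30 members higher, 0 lower and a median of 1.74.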
